A study of Homo sapiens with 21 samples.

Results

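The gene expression arrays described here compared MCF10A cells at 40 min with the same cells at 20 min after epidermal growth factor (EGF) was added. MCF10A is an established line grown from human breast epithelium, immortal but not tumour-forming, and its usual medium contains EGF. The comparison used 6 of the 21 arrays of the series, 3 at 20 min and 3 at 40 min, chosen by their labelled time alone. Both groups had been kept without EGF for 24 h, then starved for 24 h in medium holding 1% horse serum, and then given EGF at 20 ng/ml. The other 15 arrays were of cells at 0 min, before EGF, and at 60, 120, 240 and 480 min, with 3 arrays for each time. The labels call the 3 cultures of a time biological replicates of 1 cell line, and no array of cells left without EGF for 40 min was part of the set. A change between 20 and 40 min therefore cannot be told apart from an effect of handling or of time in culture.

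EGF binds its receptor EGFR and within minutes activates the RAS, RAF and ERK kinases. ERK phosphorylates transcription factors that already wait in the nucleus, and these switch on the immediate early genes, such as FOS, EGR1 and JUN, without new protein synthesis. The next wave, the delayed early genes, includes phosphatases, RNA decay factors and receptor inhibitors that restrain the same signal. The interval from 20 to 40 min lies between these waves, and the comparison asks which early genes were still gaining RNA and which were already losing it.

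Of 16614 genes measured, 95 (0.572%) passed the test between 20 and 40 min. Rises outnumbered falls: 80 genes (0.482%) rose, led by the cytokine gene LIF, the urokinase receptor gene PLAUR, the cyclooxygenase gene PTGS2, the AP-1 gene FOSL1 and the EGFR ligand gene HBEGF, each by 3.07-fold to 3.30-fold. Only 15 genes (0.0903%) fell, led by the stress-responsive transcription factor gene ATF3, 2.13-fold lower at 40 min. That balance depended on the arrays and the fit. Without replicate 3 of 20 min 169 genes rose and 155 fell. With array quality weights, whose estimation did not converge, 619 rose and 847 fell. Of the 801 genes that stood higher at 60 min than before EGF, 77 (9.61%) were still rising by their named probesets. None of them fell and 724 did not pass the test. Genes such as ATF3 that were back near the 0 min level by 60 min could not enter this group. A readout of unnamed probesets that lie between the named ones of a gene differed from the named one. There 339 of 10822 genes (3.13%) fell and 162 (1.5%) rose, and the falls ranged from 126 to 598 with 1 array left out. FOS, NR4A2, DUSP5, EGR2 and NR4A1 were among those that fell, while their named probesets rose or did not pass the test. The fall of NR4A1 was called in 4 of the 6 fits with an array left out.

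A level below is the median over a gene's named probesets of log2(intensity + 16), so a change of 1 is a doubling of intensity plus 16, and folds of dim genes are understated. A gene is called higher or lower where limma's moderated test, fitted over all 21 arrays, gave a Benjamini-Hochberg adjusted p under 0.05. A ± is the standard error of the fit, and each mean rests on 3 arrays. The median change of all 16614 genes was -0.02. At 40 min all 3 arrays stood above all 3 arrays of 20 min for 1020 genes (6.14%) and below them for 1211 genes (7.29%), so arrays that do not overlap are common and are no result alone.

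The arrays of a time correlated over genes at r of 0.952 to 0.974 at 20 min and 0.969 to 0.981 at 40 min, with the lowest value between replicates 2 and 3 of 20 min. Of the 22 basal and squamous markers listed, 19 were measured, and their summed intensity was 24206 to 26713 at 20 min and 26803 to 27287 at 40 min. The sum over 10 of 12 luminal markers was 2312 to 2633 at 20 min and 2610 to 2897 at 40 min. For 8 of 9 fibroblast markers the sums were 660 to 690 and 615 to 685, and for 3 of 5 immune markers 142 to 190 and 167 to 181. The markers not measured had fewer than 3 probesets that passed the filter on dim probesets. In such cultures fewer cells that express a gene and less of its RNA per cell cannot be told apart, and the part of these markers in any result was not tested.

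The promoters of 4 genes are shown because these genes ran courses described below, and because the sequences hold short motifs. In PLAUR, DUSP1 and EGR2 these include motifs of factors this pathway is known for. In PTGS2 only TATAAA was found among the motifs searched. PTGS2 and PLAUR rose and were not called lower at 60 than at 40 min, DUSP1 rose and then fell from 40 to 60 min, and EGR2 rose in its named probesets while its unnamed ones fell. Each is the 250 bases before a RefSeq transcription start in the build GRCh38.p14, written 5′ to 3′ on the gene's strand, which is the minus strand for all of these genes. The windows are chr1:186680424-186680673 for PTGS2, chr19:43670170-43670419 for PLAUR, chr5:172771196-172771445 for DUSP1 and chr10:62816367-62816616 for 1 of the 3 starts listed for EGR2, the windows of the other two holding none of the motifs searched. Capitals mark TATAAA in PTGS2 and DUSP1, TGANTCA (the AP-1 motif) in PLAUR, TGACGTCA (the CREB and ATF motif) in DUSP1, and the CArG box that serum response factor is known to bind in EGR2.
PTGS2: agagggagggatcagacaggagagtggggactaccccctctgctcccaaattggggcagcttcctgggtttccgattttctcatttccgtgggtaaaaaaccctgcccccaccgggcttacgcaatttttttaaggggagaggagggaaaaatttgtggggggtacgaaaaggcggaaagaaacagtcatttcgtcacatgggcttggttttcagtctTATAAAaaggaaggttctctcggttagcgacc
PLAUR: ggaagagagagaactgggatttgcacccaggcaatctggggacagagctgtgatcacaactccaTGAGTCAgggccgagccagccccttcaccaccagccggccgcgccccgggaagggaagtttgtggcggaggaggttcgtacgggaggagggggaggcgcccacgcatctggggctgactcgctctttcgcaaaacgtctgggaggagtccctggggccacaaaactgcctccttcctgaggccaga
DUSP1: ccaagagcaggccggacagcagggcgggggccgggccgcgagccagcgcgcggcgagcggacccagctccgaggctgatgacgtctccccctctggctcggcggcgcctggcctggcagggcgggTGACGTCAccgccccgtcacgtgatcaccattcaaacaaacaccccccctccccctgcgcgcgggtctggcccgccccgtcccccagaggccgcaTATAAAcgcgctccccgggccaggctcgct
EGR2: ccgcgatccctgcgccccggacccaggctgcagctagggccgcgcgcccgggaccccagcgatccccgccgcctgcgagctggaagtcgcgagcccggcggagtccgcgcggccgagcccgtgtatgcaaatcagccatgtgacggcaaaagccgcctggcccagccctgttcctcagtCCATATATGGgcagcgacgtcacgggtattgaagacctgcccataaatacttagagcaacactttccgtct
The matches begin 32 bases before the start in PTGS2, 186 in PLAUR, 125 and 30 in DUSP1, and 71 in EGR2. Both strands of the 250 bases were searched, no match of 1 motif overlapped a match of another in these windows, and a match is only a description of letters. Over 35116 such windows in the table, TATAAA was in 10.7%, TGANTCA in 6.57%, TGACGTCA in 1.65% and a CArG box in 1.16%. Of the 80 genes that rose, 61 had a window, and 8 of these held TATAAA (13.1%, against 9.79% of the 13067 tested genes with a window), 6 TGANTCA (9.84% against 6.8%), 3 TGACGTCA (4.92% against 2.93%) and 2 a CArG box (3.28% against 1.6%). Among 10 genes with a window that fell, 3 held TATAAA, 2 TGANTCA and none the other motifs. These counts are small and were not tested.

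LIF encodes a cytokine of the interleukin-6 family. Its level was 5.54, 6.12 and 6.09 on the 20 min arrays and 7.67, 7.43 and 7.81 on the 40 min arrays. All 40 min arrays stood more than 1 log2 unit above every 20 min array, and the change was 1.72 ± 0.16 (limma adjusted p = 1.37e-06, n = 3 per time). PLAUR, the receptor that holds the protease urokinase at the cell surface, went from 8.31, 8.05 and 8.11 to 9.78, 9.89 and 9.87. Its standard error was the smallest of the 5 leading genes, and all 16 of its probesets moved up (1.69 ± 0.10, limma adjusted p = 1.12e-09). HBEGF, a membrane-anchored ligand that is shed to activate EGFR again, stood at 8.81, 8.86 and 8.20 and then at 10.37, 10.12 and 10.24. Replicate 3 was the low array of 20 min, and the times did not overlap (1.62 ± 0.16, limma adjusted p = 2.48e-06).

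PTGS2, which makes prostaglandins, was at 7.70, 7.81 and 7.11 at 20 min and at 9.29, 9.16 and 9.24 at 40 min. The change was 1.69 ± 0.16 (limma adjusted p = 1.37e-06). It had already stood 1.92 over 0 min at 20 min and moved by only 0.01 ± 0.16 from 40 to 60 min, so its gain after 20 min lay between 20 and 40 min. SEMA7A, a membrane-linked semaphorin, had not passed the test at 20 min against 0 min (0.18, limma adjusted p = 0.44), and then went from 5.83, 5.68 and 6.05 to 7.37, 7.28 and 7.35. The 40 min arrays lay close together and well above the 20 min arrays (1.48 ± 0.13, limma adjusted p = 5.85e-07). TMEM88, a membrane protein linked to WNT signalling, rose by 1.28 ± 0.11. IL20, a cytokine of the interleukin-10 family with actions on epithelium, rose by 1.14 ± 0.13, and HAS3, an enzyme that makes hyaluronan, by 1.06 ± 0.11.

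**Figure D1:**
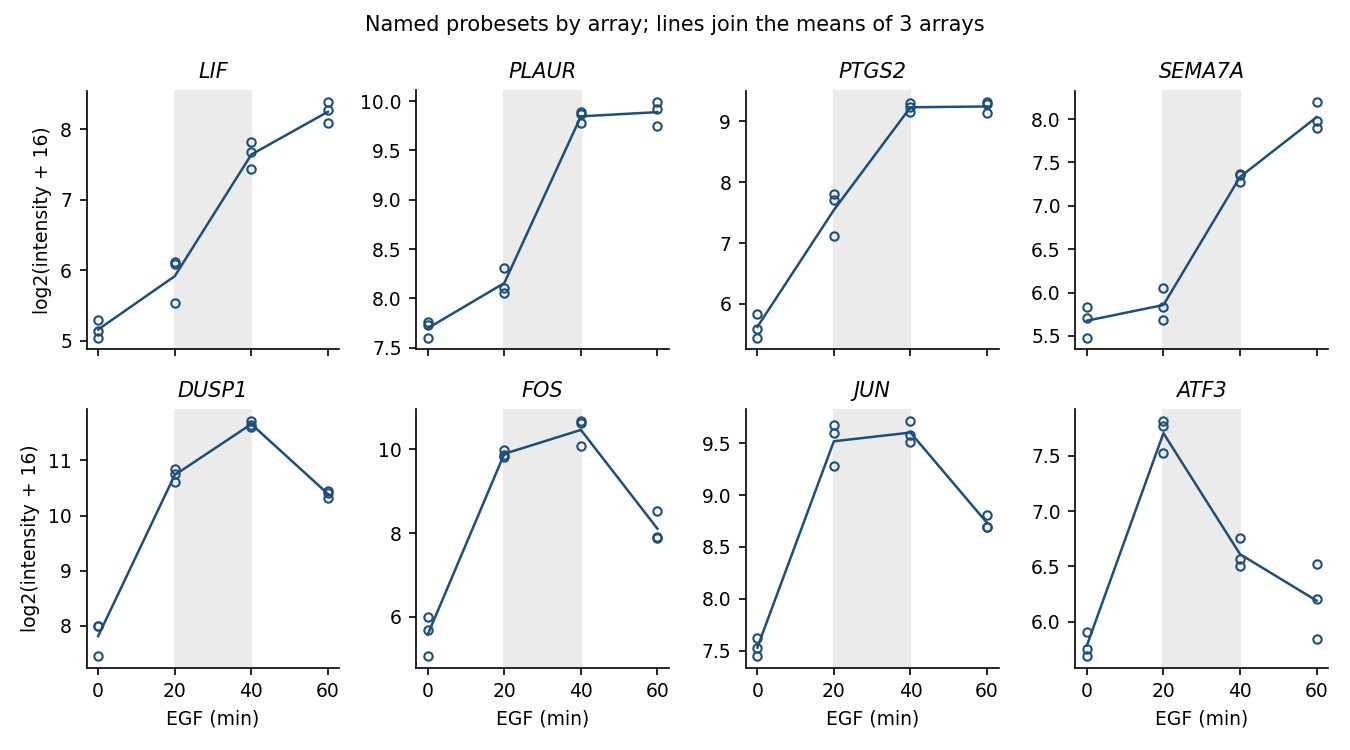
Levels of 8 genes on each array (circles, log2(intensity + 16), y axes scaled per gene) against minutes of EGF, with lines through the means of 3 arrays and the interval from 20 to 40 min shaded. LIF, PLAUR, PTGS2 and SEMA7A gained in that interval, DUSP1 gained and then lost, FOS and JUN did not pass the test in it, and ATF3 fell.

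The list of chemokine, cytokine and NF-kB genes had 27 measured members, of which 3 rose (LIF, PTGS2 and TNFAIP3) and none fell. Its median change was 0.29 against -0.02 for all genes. Over all 16614 genes 0.482% rose and 0.0903% fell, the shares to set beside this and the later list counts. The lists were chosen with earlier results of these data known. TNFAIP3 encodes A20, an enzyme that restrains NF-kB signalling. Its level was 7.90, 8.01 and 7.69 and then 9.14, 8.83 and 8.91, a change of 1.09 ± 0.11 with no overlap. CXCL8, a neutrophil chemokine, moved up on all 3 arrays, from 7.03, 6.73 and 6.35 to 7.41, 7.58 and 7.47, but did not pass the test (0.78 ± 0.19, limma adjusted p = 0.0812). It was the only one of the 12 genes with the largest change from 0 to 60 min that was not called here; the other 11 rose.

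Among 13 measured EGF family ligands, receptors and sheddases, HBEGF and EREG rose and none fell, with a median change of 0.00. EREG, the ligand epiregulin, changed from 7.05, 7.66 and 7.51 to 8.03, 7.89 and 8.31, with no overlap (0.67 ± 0.14, limma adjusted p = 0.0182). Its call held in 3 of the 6 fits that left out 1 array each, over which limma's adjusted p reached 0.182. TGFA, another EGFR ligand, changed by 0.28 ± 0.15 (limma adjusted p = 0.432) with overlapping arrays, beside 1.31 ± 0.15 from 40 to 60 min. The receptors EGFR, ERBB2, ERBB3 and ERBB4 changed by -0.15, 0.00, -0.22 and 0.10, none of them called. Of 27 measured genes for proteolysis, hyaluronan and migration, 4 rose: PLAUR, HAS3, VEGFA (the angiogenic growth factor, 0.57 ± 0.11) and PLAT (tissue plasminogen activator, 0.47 ± 0.09). The list's median was 0.21, and the calls of VEGFA and PLAT held in 4 and 3 of those 6 fits.

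Transcription factor genes of the first wave differed in this interval. In the list of EGR, NR4A and NAB genes 4 of 9 measured members rose and none fell, with a median of 0.61. EGR3, a zinc finger factor, rose by 1.51 ± 0.18, from 8.38, 8.33 and 8.37 to 10.04, 9.73 and 9.82. EGR2, its relative, went from 8.08, 7.64 and 7.27 to 8.78, 8.79 and 8.61, and although the 20 min arrays were spread widely, none reached the 40 min arrays (1.07 ± 0.17, limma adjusted p = 0.00186). NR4A3, an orphan nuclear receptor, rose by 1.35 ± 0.14. NR4A1, the founding member of that receptor group, stood at 8.81, 8.45 and 8.55 and then at 9.61, 9.49 and 9.38, a change of 0.89 ± 0.12 (limma adjusted p = 0.00016), and 21 of its 29 probesets moved up. EGR1 changed by 0.46 ± 0.13 (limma adjusted p = 0.16), EGR4 by 0.61 ± 0.17 (limma adjusted p = 0.133) and NR4A2 by 0.35 ± 0.15 (limma adjusted p = 0.367). In each of these 3 the 40 min arrays lay above the 20 min arrays without passing the test.

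AP-1 is a dimer of FOS and JUN family proteins. Among 18 measured AP-1 and related genes 3 rose, 1 fell and 14 did not pass the test, with a median of 0.18. FOSL1, which encodes FRA1, went from 7.11, 6.73 and 6.59 to 8.65, 8.26 and 8.45 (1.64 ± 0.14, limma adjusted p = 5.56e-07). FOSB lay between 7.95 and 8.23 at 20 min and between 8.63 and 8.87 at 40 min (0.73 ± 0.12). JUNB, which makes a JUN protein of weaker activity, rose by 0.54 ± 0.12 (limma adjusted p = 0.037), a call that held in 1 of the 6 fits with an array left out.

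FOS itself was at 9.98, 9.87 and 9.82 at 20 min and at 10.62, 10.68 and 10.08 at 40 min. Replicate 3 of 40 min was lower than the other two, and the difference of 0.57 ± 0.21 was not called (limma adjusted p = 0.306). From 40 to 60 min FOS fell by 2.36 ± 0.21 (limma adjusted p = 5e-06). JUN was at 9.60, 9.68 and 9.28 and then at 9.72, 9.51 and 9.59, with overlapping arrays and a change of 0.08 ± 0.12, and it fell by 0.87 ± 0.12 from 40 to 60 min. MAFF, a small MAF factor, changed by 0.09 ± 0.18. The changes to 20 min and from 40 min share arrays with the comparison of 20 with 40 min, so these values stand side by side and are not independent of it.

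ATF3 was the AP-1 related gene that fell. It encodes a stress-induced factor that mostly represses its targets. The level was 5.75, 5.69 and 5.91 at 0 min, 7.77, 7.82 and 7.53 at 20 min, 6.57, 6.76 and 6.50 at 40 min, and 6.52, 6.21 and 5.84 at 60 min. Every 40 min array lay below every 20 min array, and the change was -1.09 ± 0.16 (limma adjusted p = 0.000509). The call held in all 6 fits with an array left out, but 8 of its 15 probesets moved down by themselves, and the others did not. TGIF1, a homeodomain repressor that limits TGF-beta signalling, had also been higher at 20 min: 7.26, 7.05 and 6.83 at 0 min, 8.02, 8.03 and 7.89 at 20 min, and 7.36, 7.30 and 7.05 at 40 min. Its arrays at 20 and 40 min did not overlap (-0.75 ± 0.12, limma adjusted p = 0.00186), and 14 of 24 probesets moved down.

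The other immediate early nuclear genes on a list of 28 measured members gave 6 that rose, none that fell and a median of 0.13. IER3, which is linked to cell survival, rose by 0.80 ± 0.09, from 8.52, 8.52 and 8.46 to 9.27, 9.35 and 9.28. CSRNP1, a nuclear protein that AXIN1 induces, rose by 0.79 ± 0.14, KLF10, a factor of the KLF family, by 0.73 ± 0.14, TRIB1, a pseudokinase, by 0.71 ± 0.14, KDM6B, a histone H3 demethylase, by 0.64 ± 0.09, and ETS2, a target of ERK, by 0.56 ± 0.12. KLF10 and TRIB1 kept the call in 4 of the 6 fits with an array left out and ETS2 in 1.

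Negative regulators of the pathway were among the genes that rose. DUSP proteins remove phosphate from MAP kinases, DUSP6 in the cytoplasm and DUSP1, DUSP4 and DUSP5 in the nucleus. Of 11 measured, these 4 rose and none fell, with a median of 0.22. DUSP1 stood at 10.85, 10.75 and 10.61 and then at 11.72, 11.64 and 11.62 (0.92 ± 0.13, limma adjusted p = 0.000411), and it was at 10.44, 10.41 and 10.32 at 60 min, a fall of 1.27 ± 0.13 from 40 min. DUSP5 went from 8.80, 8.52 and 8.60 to 9.85, 9.72 and 9.63 (1.09 ± 0.13) and changed by -0.19 ± 0.13 after that. DUSP6 went from 8.28, 8.19 and 8.20 to 9.39, 9.15 and 9.28 (1.05 ± 0.11) and rose by a further 0.92 ± 0.11 to 60 min. At 40 min none of these groups of 3 overlapped with 20 min, although from 40 to 60 min DUSP1 fell, DUSP5 was not called and DUSP6 rose. DUSP4 rose by 0.61 ± 0.11, a call that held in 5 of the 6 fits with an array left out.

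Receptor-level inhibitors gave 2 rises and no fall among 19 measured, with a median of 0.07. SPRY4, a Sprouty protein that blocks RAS activation, went from 5.78, 5.80 and 5.64 to 6.89, 6.49 and 6.62 (0.93 ± 0.16). ERRFI1, known as MIG6, binds and inhibits EGFR itself, and it rose by 0.74 ± 0.13, from 8.80, 8.90 and 8.32 to 9.46, 9.25 and 9.53. Both groups were separate, and SPRY4 gained a further 1.21 ± 0.16 to 60 min.

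RNA decay genes gave 2 rises among 21 measured, with a median of -0.03. ZC3H12A, or regnase-1, is a nuclease that cuts cytokine transcripts, and it went from 8.26, 8.42 and 7.99 to 9.15, 8.97 and 8.89 (0.78 ± 0.12, limma adjusted p = 0.000694). ZFP36, or tristetraprolin, which binds AU-rich elements and recruits deadenylases, was at 8.42, 8.52 and 8.52 and then at 9.51, 9.19 and 8.80. The 40 min arrays were spread widely, the call rested on 0.68 ± 0.15 (limma adjusted p = 0.035), and it held in 2 of the 6 fits with an array left out. From 40 to 60 min ZFP36 fell by 0.72 ± 0.15 (limma adjusted p = 0.0445). The deadenylase subunit genes CNOT1, CNOT6, CNOT7 and CNOT8 changed by -0.10, -0.37, -0.02 and -0.09, none called.

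Smaller counts came from the remaining lists. The glucose and amino acid list had 2 rises among 25 measured: ODC1, which makes putrescine, by 0.78 ± 0.13, and SLC2A3, a glucose transporter, by 0.78 ± 0.16, with the call of SLC2A3 kept in 3 of the 6 fits with an array left out. SMOX, the spermine oxidase that acts in the same polyamine pathway, was not on a list and rose from 6.66, 6.55 and 6.58 to 7.92, 7.58 and 7.76 (1.16 ± 0.12). PLK3 (0.60 ± 0.10) was the 1 rise among 20 p53 targets, and VCL, the adhesion protein vinculin (0.58 ± 0.12), the 1 rise among 24 SRF and YAP targets, kept in 3 of those 6 fits. SPRR2A (0.97 ± 0.22, limma adjusted p = 0.0488), a cornified envelope gene with near-identical relatives, was the 1 rise among 19 basal and squamous markers, and its call failed in all 6 fits with an array left out. Of 10 luminal markers FOXA1 rose (0.50 ± 0.11) and GATA3 fell (-0.45 ± 0.10), each close to the threshold and called in 0 and 1 of those fits. No gene was called on the lists for G1 and S phase (24 measured), G2 and M phase (28), sterol synthesis (17), ribosome assembly (31), small nucleolar RNA hosts (14), fibroblasts (8), immune cells (3) or reference genes (10).

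Of the 15 genes that fell, 6 were also called lower at 60 min against 0 min, and 9 were not called there. Of all 16614 genes, 162 (0.975%) were called lower in that comparison. Besides ATF3 and TGIF1, the 5 largest changes were those of AKR1C2, a steroid-converting enzyme (-0.98 ± 0.12), UGT1A6, a glucuronosyltransferase (-0.90 ± 0.20), C8orf44 (-0.84 ± 0.12), NAPB, a vesicle fusion protein (-0.78 ± 0.16), and EID3 (-0.78 ± 0.15). AKR1C2 has near-identical relatives and UGT1A6 shares exons with other genes of its locus, so their probesets may read several genes. AKR1C2 was at 9.23, 8.97 and 8.88 and then at 8.20, 8.13 and 7.81, well apart. ARRDC3, an alpha-arrestin of the FOXO and starvation list, went from 8.46, 8.84 and 8.42 to 8.12, 7.68 and 7.83 (-0.70 ± 0.14). All 15 of its named probesets moved down, but the call held in 3 of the 6 fits with an array left out. Its unnamed probesets moved more upward than the named ones, by 0.82 ± 0.16 (limma adjusted p = 0.00558), in a test described below. ARRDC3 was the 1 fall among 32 measured on that list, whose median was -0.14. The rest were VAMP1, THA1P, NUDT13, ANKRD46, USP21, FGF7P6 and GATA3, with changes from -0.45 to -0.70. THA1P and FGF7P6 are pseudogenes, and 3 of the 7 probesets of THA1P moved down; its change was 0.080 where only probesets above the 75th percentile of signal were kept. The calls of ATF3, AKR1C2, C8orf44 and TGIF1 held in all 6 fits with an array left out, as did 36 of the 80 rises.

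These counts depend on single arrays. Without replicate 3 of 20 min, 324 genes were called (169 higher, 155 lower), including 72 of the 80 rises and 14 of the 15 falls. The count was 62 (55 and 7) without replicate 1 and 64 (58 and 6) without replicate 2 of 20 min, and 72 (50 and 22), 62 (56 and 6) and 58 (53 and 5) without replicates 1, 2 and 3 of 40 min. Replicates 2 and 3 of 20 min lay farthest from their group mean, with a standard deviation over genes of 0.183 and 0.195 against 0.119 to 0.158 for the other 4 arrays. The balance of 80 rises to 15 falls therefore rested in part on replicate 3 of 20 min. With array quality weights, whose estimation stopped before it converged, 619 genes were higher and 847 lower, so falls then outnumbered rises.

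Early genes were then taken by a comparison that shares no array with this one, 60 min against 0 min. There 801 genes (4.82%) were higher, here called early risers, and 162 (0.975%) lower, called early fallers. Of the 801 early risers, 77 (9.61%) rose from 20 to 40 min, none fell and 724 did not pass the test, beside 0.482% and 0.0903% of all genes. Their median change was 0.10 and 547 of them had a change above 0. Of the 152 early risers whose change at 60 min was at least 1, 58 (38.2%) rose, none fell and 141 had a change above 0, with a median of 0.50. Of the 162 early fallers, 6 (3.7%) fell, none rose, and the median was -0.12, with 38 above 0. Genes such as ATF3 and TGIF1, back near the level of 0 min by 60 min, cannot enter the early risers, so this choice leaves out part of the genes that had begun to fall. Only 3 of the 80 genes that rose were no early risers: KCNV2, RPRML and USP2, each called in 2 of the 6 fits with an array left out, and the change of KCNV2 was -0.11 with no filter on dim probesets. Without replicate 1 of 40 min 46 early risers rose, and without replicate 3 of 20 min 82 rose, 2 fell, and 17 early fallers fell; the fallers that fell were 2 without replicate 1 of 20 min or replicates 2 or 3 of 40 min, and 3 without replicate 2 of 20 min.

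**Figure D2:**
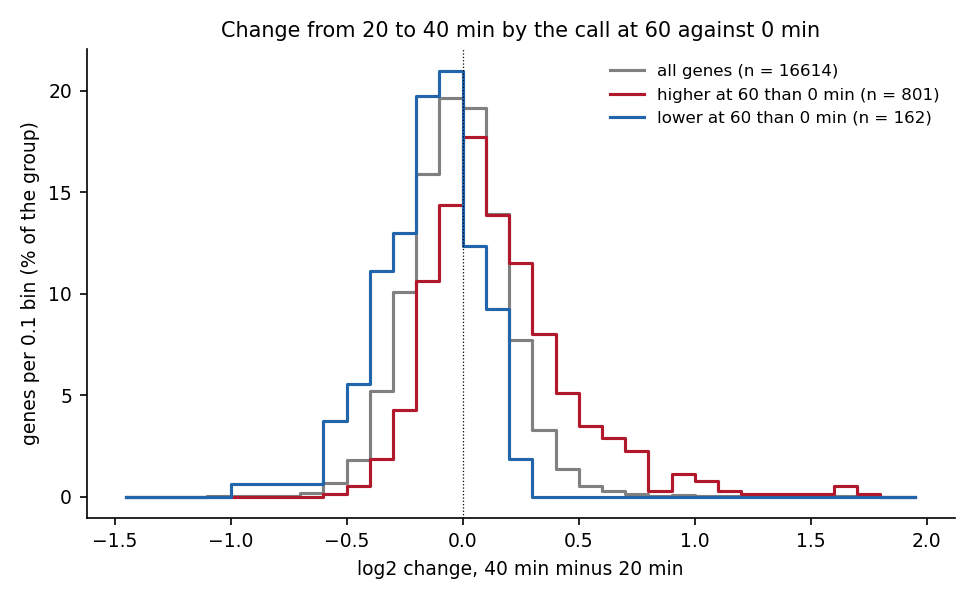
Share of genes (percent of each group) in bins of 0.1 of the log2 change from 20 to 40 min, for all 16614 genes, the 801 genes higher and the 162 genes lower at 60 min than at 0 min. The early risers have a long right tail, with 77 called higher, and the early fallers lie to the left, with 6 called lower.

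The arrays also hold probesets with no gene name in the platform's annotation. Those whose nearest named neighbours in ID number, on both sides, belong to the same gene are called bracketed here, and their median was fitted as a second readout of 10822 genes. Whether they lie in introns was not tested, since no positions were used; the series title speaks of pre-mRNA and mRNA. Along the ID numbers, 98.5% of consecutive genes were on the same chromosome in RefSeq (19305 genes matched), and 97.4% of those pairs were in ascending order, so numbers broadly follow chromosome order between genes. In this readout 501 genes (4.63%) were called, 162 higher (1.5%) and 339 lower (3.13%). Here falls outnumbered rises, with a median change of -0.01 over the 10822 genes. Of 549 early risers with this readout 69 (12.6%) rose and 36 (6.56%) fell, and of the 102 of at least 1 at 60 min 27 (26.5%) rose and 17 (16.7%) fell, where the named readout had given no fall. Of 97 early fallers 12 (12.4%) fell and none rose. Of the 501 calls, 161 held in all 6 fits with an array left out. Without replicate 3 of 20 min 221 were higher and 598 lower. The counts were 105 and 177 without replicate 1 of 20 min, 79 and 126 without replicate 2, and 100 and 361, 86 and 157, and 85 and 135 without replicates 1, 2 and 3 of 40 min.

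Early transcription factor genes were among the largest falls. ATF3 was at 8.49, 8.17 and 8.17 at 20 min and at 6.12, 6.28 and 5.79 at 40 min (-2.22 ± 0.20, limma adjusted p = 5.42e-07), from 3 bracketed probesets. FOS went from 8.17, 8.55 and 8.06 to 6.47, 6.61 and 6.34 (-1.78 ± 0.16), also from 3, while its named probesets changed by 0.57 without a call. NR4A2 went from 7.73, 7.90 and 7.33 to 6.01, 5.96 and 5.78 (-1.74 ± 0.12, limma adjusted p = 3.29e-08), and all 8 of its bracketed probesets moved down. In each of the 3 genes the lowest 20 min array was more than 1 log2 unit above the highest 40 min array. KLF6, a tumour suppressor of the KLF family, fell by 0.90 ± 0.15, and FOSL2, an AP-1 gene, by 1.06 ± 0.16. Among 8 AP-1 related genes with this readout 4 fell (ATF3, FOS, FOSL2 and MAFF) and none rose, with a median of -0.41. Among 6 EGR and NR4A genes 3 fell (NR4A2, EGR2 and NR4A1) and none rose, with a median of -0.53. Over all 10822 genes with this readout 3.13% fell and 1.5% rose, the shares to set beside its list counts. MAFF and NR4A1 each kept the call in 4 of 6 fits with an array left out.

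DUSP5 showed the contrast between both readouts in full. Its bracketed probesets were at 5.71, 5.42 and 5.63 at 0 min, 9.07, 8.73 and 8.45 at 20 min, 7.50, 7.03 and 6.77 at 40 min and 6.06, 6.52 and 6.40 at 60 min. They fell by 1.65 ± 0.17 from 20 to 40 min (limma adjusted p = 3.08e-06) while the named probesets rose by 1.09 ± 0.13. EGR2 fell by 0.93 ± 0.12 in the bracketed readout, from 7.34, 7.01 and 7.34 to 6.34, 6.18 and 6.38, and rose by 1.07 in the named one. NR4A1 fell by 0.84 ± 0.19, from 7.80, 7.92 and 7.56 to 6.97, 7.40 and 6.39, against a rise of 0.89. These 3 were among 7 genes called higher in the named and lower in the bracketed readout; the others were CSRNP1, DUSP4, SIK1 (a salt-inducible kinase) and MAP3K8 (the kinase TPL2). Of 56 genes with both readouts that rose in the named one, 15 rose and 34 were not called in the bracketed one. Of the 8 that fell in the named one, ATF3 and TGIF1 fell in both and 6 were not called. SIK1 kept its bracketed call in 4, CSRNP1 in 5, and DUSP4 and MAP3K8 in 3 of 6 fits with an array left out.

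**Figure D3:**
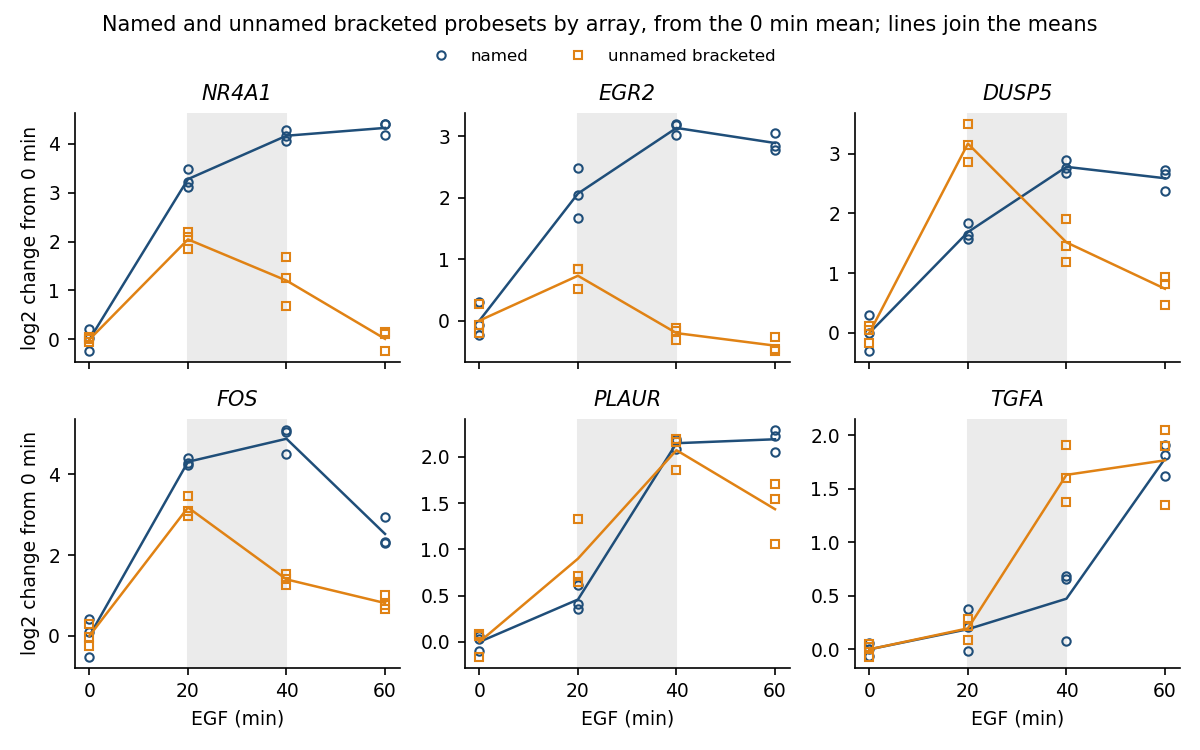
Named (circles) and unnamed bracketed probesets (squares) of 6 genes on each array, as log2 change from the 0 min mean of the same readout, against minutes of EGF, with lines through the means and y axes scaled per gene. Between 20 and 40 min (shaded) both readouts part in NR4A1, EGR2, DUSP5 and FOS, rise together in PLAUR, and in TGFA the bracketed readout rose.

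The difference itself was then tested, as bracketed minus named level on each array, a test added after these values had been seen. Of 10622 genes with both readouts, 213 (2.01%) changed differently, 81 with the bracketed readout moving more upward (0.763%) and 132 more downward (1.24%). The value was -2.74 ± 0.17 for DUSP5 (limma adjusted p = 5.21e-10), -2.35 ± 0.24 for FOS, -2.09 ± 0.17 for NR4A2, -2.00 ± 0.22 for EGR2 and -1.73 ± 0.20 for NR4A1. CCN2 and CCN1 gave -1.93 ± 0.24 and -1.77 ± 0.22. CSRNP1, MAP3K8, SIK1 and DUSP4 passed as well, with -1.42, -1.54, -1.22 and -1.12. These calls of DUSP5, FOS, NR4A2, EGR2, NR4A1, CSRNP1, MAP3K8, SIK1 and DUSP4 held in each of the 6 fits with an array left out. Of all 213 such calls, 80 did. Of the 102 early risers of at least 1 with both readouts, 30 (29.4%) moved more downward and 9 (8.82%) more upward in the bracketed readout, with a median difference of -0.23 beside 0.02 for all genes. Of the 12 largest rises in the named readout, FOSL1 (-1.49 ± 0.18), NR4A3 (-1.44 ± 0.22), HBEGF (-1.06 ± 0.16) and SEMA7A (-1.01 ± 0.18) passed too. Each of these calls held in all 6 fits with an array left out. Also among those 12, PLAUR (-0.52, limma adjusted p = 0.192), TNFAIP3 (-0.65, limma adjusted p = 0.106) and SMOX (-0.12, limma adjusted p = 0.837) did not pass. SPRY4 (-0.15, limma adjusted p = 0.771) and FERMT2 (0.19, limma adjusted p = 0.761) did not pass either. Left-out arrays moved the totals: 41, 40 and 82 more upward and 80, 85 and 134 more downward without replicates 1, 2 and 3 of 20 min, and 51, 35 and 51 with 115, 85 and 72 without those of 40 min.

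**Figure D4:**
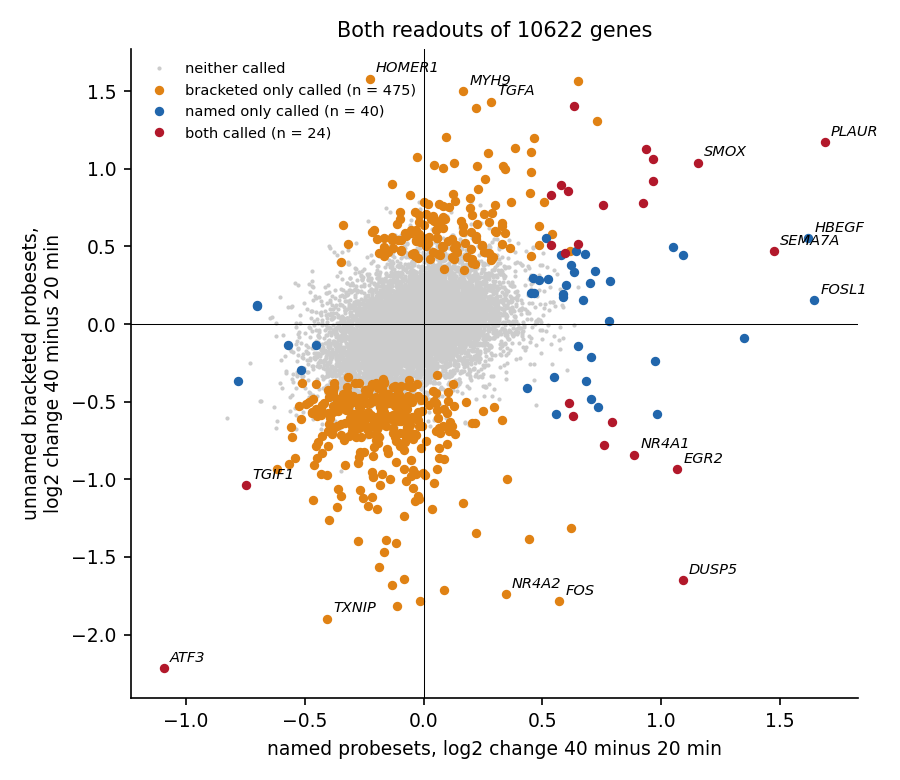
Log2 change from 20 to 40 min of the named (x) against the unnamed bracketed probesets (y), 1 point per gene, 10622 genes, coloured by which readout was called. The lower right quadrant holds the 7 genes called higher in one and lower in the other, with DUSP5 the farthest out, and ATF3 and TGIF1 lie at the lower left.

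Other falls came in part from genes that were not called at 20 min against 0 min. TXNIP, an inhibitor of thioredoxin and of glucose uptake, had bracketed levels of 7.51, 7.90 and 7.96 at 0 min and 7.84, 8.32 and 7.47 at 20 min, and then 6.27, 5.81 and 5.85 at 40 min (-1.90 ± 0.19, limma adjusted p = 3e-06). FBXO32, a ubiquitin ligase subunit and FOXO target, went from 7.31, 7.72 and 7.22 to 5.85, 5.94 and 5.40 (-1.68 ± 0.15). PDCD4, an inhibitor of translation, fell by 1.57 ± 0.19, and LRIG3, a membrane protein of the LRIG family, by 1.81 ± 0.16. Their named probesets changed by much less, with -0.41 for TXNIP, -0.13 for FBXO32 and -0.11 for LRIG3, none of them called. Of 23 genes on the FOXO and starvation list with a bracketed readout 8 fell and none rose, with a median of -0.26. Over all 10822 genes with this readout 3.13% fell. The 8 were TXNIP, FBXO32, YPEL5, SESN3, CDKN1B, PIK3R1, KLHL24 and PIK3C2B. YPEL5, CDKN1B and PIK3C2B kept the call in 4, 3 and 1 of 6 fits with an array left out, and the other 5 in all. SLC38A2 (an amino acid transporter, -1.41 ± 0.17), SLC2A1 (the glucose transporter GLUT1, -1.01 ± 0.13), SAT1, SLC7A5 and DDIT3 made 5 falls among 20 on the glucose and amino acid list, and SLC2A1 and SAT1 had been higher at 20 than at 0 min by 0.80 and 1.19. DDIT3 kept the call in 2 of 6 fits with an array left out. Of 10 basal and squamous markers with this readout, KRT5 (-0.66 ± 0.13), DSG3 (-0.60 ± 0.15) and KRT14 (-0.56 ± 0.13) fell and none rose, with a median of -0.35, while their named probesets changed by -0.01, -0.05 and 0.25 without a call. DSG3 and KRT14 kept the bracketed call in 2 and 3 of those fits.

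Targets of SRF and YAP went both ways in this readout, with 5 rises and 4 falls among 20. The matricellular genes CCN1 and CCN2 fell by 1.78 ± 0.24 and 1.31 ± 0.26, while their named probesets changed by -0.02 ± 0.13 and 0.62 ± 0.15 without a call. MYH9, the heavy chain of non-muscle myosin, went from 7.04, 7.04 and 6.96 to 8.68, 8.51 and 8.35 (1.50 ± 0.13, limma adjusted p = 5.42e-07), and 50 of its 53 bracketed probesets moved up. ACTN1, an actin crosslinker, rose by 0.84 ± 0.13. Their named probesets changed by 0.17 and 0.12, not called. AMOTL2 and TPM1, which encode an angiomotin and a tropomyosin, fell by 0.67 and 0.57, and TPM1 kept the call in 2 of 6 fits with an array left out. VCL (0.90 ± 0.23) was called with all arrays and in none of the 6 fits with 1 left out, and LATS2 and FHL3 in 2 each.

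Of the genes with both readouts, 146 rose in the bracketed one without a call in the named one. TGFA went from 5.81, 5.74 and 5.62 to 7.44, 6.91 and 7.12 (1.43 ± 0.15, limma adjusted p = 3.75e-06), 48 of 50 bracketed probesets moved up, and the named readout rose from 40 to 60 min. HOMER1, a synaptic scaffold, rose by 1.58 ± 0.19 and STK38L, a kinase of the NDR family, by 1.57 ± 0.19. The others of the 12 largest rises were CYTOR (a long noncoding RNA), CYSTM1, PHLDB2, OXSR1, RIMKLB, PLAUR, EZR and FERMT2, from 1.40 down to 1.13. Among the 12 largest falls were also PLK2, a stress-responsive kinase (-1.71 ± 0.19), HERPUD1, a gene of protein quality control (-1.64 ± 0.15), and ATP1B3, a sodium pump subunit (-1.47 ± 0.24). In the migration list 6 of 19 rose: PLAUR (1.17 ± 0.17), PLAU, the protease urokinase itself (0.84 ± 0.14), ITGA2 (0.79 ± 0.15), TNC (0.79 ± 0.19), ITGB1 (0.75 ± 0.18) and LAMA3 (0.39 ± 0.10). The integrin subunits ITGA2 and ITGB1 and the matrix proteins TNC and LAMA3 serve adhesion to matrix. THBS1 (thrombospondin 1, -1.34 ± 0.16) and TIMP3 (a protease inhibitor, -0.71 ± 0.12) fell. TNC and ITGB1 kept the call in 2 of 6 fits with an array left out and LAMA3 in 1. DDX21 (1.04 ± 0.16) and NOP56 (0.55 ± 0.12), which serve ribosome assembly, were the 2 rises among 26 on that list.

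Genes with at least 12 bracketed probesets were split into 3 segments of equal size by ID number, again after the readouts had been seen, and the change of the high segment was tested against that of the low segment. Of 3557 genes 209 (5.88%) changed unequally, and the genes named from here on were picked for their size after the values were seen. EZR encodes ezrin, which links actin to the membrane. Its low segment lay between 6.46 and 7.19 at 20 min and between 8.99 and 9.07 at 40 min, a change of 2.14 ± 0.16, while the high segment changed by -0.11 ± 0.21. At 20 min the high, middle and low segments had stood 2.85, 1.46 and 0.33 above 0 min, and at 40 min they stood at 2.74, 2.18 and 2.47. EZR lies on the minus strand, so if numbers also ascend along the chromosome within a gene, which was not tested, its high segment is the one nearest the start. The segment with the lowest numbers changed between 20 and 40 min, and the one with the highest had changed before.

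ITGB1, the beta 1 integrin subunit, and KLF7, both also on the minus strand, ran the same way. In ITGB1 the low segment went from 7.60, 7.22 and 7.17 to 9.91, 9.54 and 9.50 (2.32 ± 0.17) and the high segment changed by 0.05 ± 0.18. In KLF7 the low segment changed by 1.64 ± 0.22 and the high segment changed by -0.19 ± 0.15. In CD55 and OSMR, on the plus strand, it was the high segment that gained. CD55, a protein that protects cells from complement, had a low segment at 9.02, 8.87 and 8.29 that went to 7.34, 7.17 and 7.04 (-1.54 ± 0.17), and a high segment at 6.82, 6.36 and 5.75 that went to 8.21, 7.92 and 7.77 (1.66 ± 0.23). The arrays of both times did not overlap in either, and the difference of 3.20 ± 0.19 was the largest of the 3557 (limma adjusted p = 8.05e-12). OSMR, a receptor subunit for oncostatin M, was alike, with -0.56 ± 0.18 and 1.49 ± 0.19.

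HOMER1 and MYO1E, a class I myosin, both on the minus strand, gained in the high segment between 20 and 40 min. In these genes, as in EZR, the high segment gained before the low one, but at a later time than in EZR. The high segment of HOMER1 changed by 3.01 ± 0.29 and its low segment by 0.33 ± 0.18, and by 60 min the low segment had reached 1.78 above 0 min. The high segment of MYO1E changed by 1.86 ± 0.23, while its low segment changed by -0.10 ± 0.16 and stood 1.49 above 0 min by 60 min. LAMA3, the laminin alpha 3 chain on the plus strand, changed in its high segment by 1.91 ± 0.16, with 0.03 ± 0.11 in the low and 0.22 ± 0.12 in the middle segment. Of 173 such genes with a strand in the promoter table, taking numbers to ascend, the segment away from the start moved more upward in 80 and the segment toward it in 93. The sign of the difference alone thus marks no single order along the genes. The calls of EZR, ITGB1, KLF7, CD55, OSMR, HOMER1, MYO1E and LAMA3 held in each of the 6 fits with an array left out. Of all 209 such calls, 79 did. The number of called genes was 135, 113 and 226 without replicates 1, 2 and 3 of 20 min and 159, 148 and 120 without those of 40 min.

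**Figure D5:**
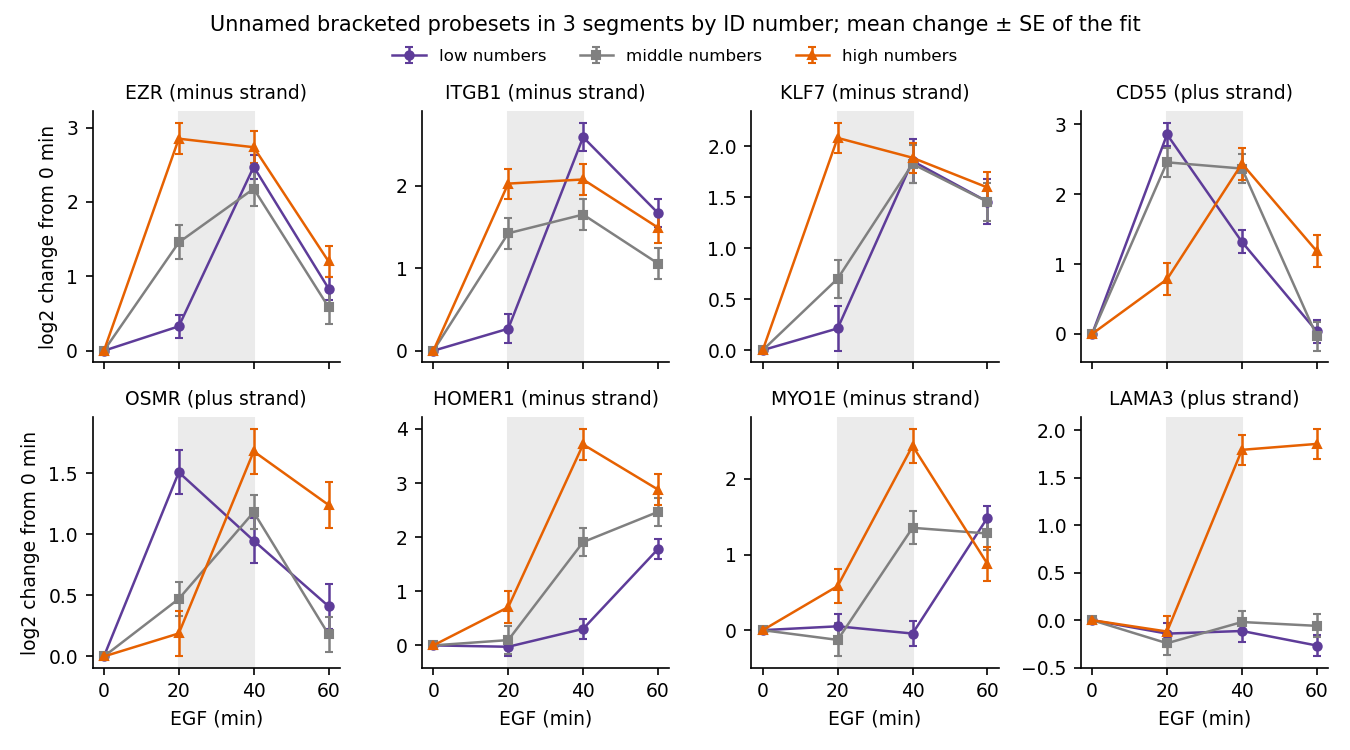
Mean log2 change from 0 min (± SE of the fit, 3 arrays per time) of the low, middle and high segment of the bracketed probesets by ID number, against minutes of EGF, in 8 genes with y axes scaled per gene. In EZR, ITGB1 and KLF7 (minus strand) the low segment, and in CD55 and OSMR (plus strand) the high segment, gained between 20 and 40 min; in HOMER1 and MYO1E the high segment gained first, and in LAMA3 the high segment gained.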

How the data were processed

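RNA of MCF10A cells at 7 times of EGF was hybridised to Affymetrix exon arrays, 3 biological replicates a time, with ribosomal RNA removed, per the labels' protocols. The deposited intensity values are the authors' probeset summaries by PLIER in Affymetrix Expression Console 1.1, per the submitters' processing notes. The genome build behind the probesets was not given in the sources used here.

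Of 1384231 probesets, 354600 name 1 gene in the platform annotation, 14898 several and 1014733 none. Of the 19497 symbols, 16426 were current, 2950 were updated and 121 kept as given. Probesets with a mean over 21 arrays above the median of all probesets (intensity 20.18) were kept, which left 261183 single-gene probesets. A gene's value was the median of log2(intensity + 16) over at least 3 such probesets, and 135950 unnamed bracketed probesets were treated likewise. limma 3.58.1 (R 4.3.3, with data.table at version 1.17.8) fitted 1 mean per time with 14 residual degrees of freedom, and p-values were adjusted over all genes by Benjamini and Hochberg. They measure only the spread between the 3 cultures of each time, and few arrays limit their precision. The scripts were tested on simulated data.

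The members and the 24 gene lists were chosen with earlier results of these data known. Genes were named if they were among the 12 largest called changes in a direction, up to 4 called members of a list, or the 12 largest early risers. All members of the AP-1, EGR and NR4A, phosphatase, RNA decay and EGF ligand lists could be described. In the bracketed readout the 12 largest called changes in each direction were named, and called list members could be. The other called genes named, and the split into 3 segments, were picked after their values were seen. Comparisons of 20 with 0 min and 60 with 40 min share arrays with that of 40 with 20 min. Promoter sequences are RefSeq's, in GRCh38.p14.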

Additional observations from a re-analysis of the deposited data

How the results depend on the processing

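The settings below were applied to the counts of called genes and to 119 called values of single genes. Quantile normalisation kept 119 of these calls, median centring 94 of 95, an intensity trend 118, and a pseudocount of 1 107 of 116. Under these the counts of called genes moved by at most 1.5 times. The 21 arrays as deposited had median intensities of 20.44 to 20.56, so quantile normalisation may have had little left to change. The early fallers themselves, 162 in all, numbered 330 with median centring, 267 with the filter at the 75th percentile, 281 with the array index and 291 with the mean of probesets. A pseudocount of 64 gave 26 lower genes and 11 early fallers that fell. Without the filter on dim probesets KCNV2 turned to -0.11, and with the filter at the 75th percentile THA1P turned to 0.080 and the bracketed lower genes numbered 156. The mean of probesets gave 187 called genes, 147 higher and 40 lower, with 132 early risers higher, 1 lower and 19 early fallers lower. A fit of the 6 arrays alone, with fewer residual degrees of freedom, gave 40 called, 35 higher and 5 lower, 35 early risers higher, 3 early fallers lower, 54 bracketed genes higher and 109 lower, 25 and 73 for the difference of readouts, and 137 genes with unequal segments. With an array index, the median signal of single-gene minus unnamed probesets, as covariate, the counts were 149, 124 and 25, with 12 early fallers lower and 251 bracketed genes higher. Array quality weights, which stopped before convergence, gave 1466 called, 619 higher and 847 lower, 163 early risers higher and 13 lower, 56 early fallers lower, and 497 bracketed genes higher and 1151 lower. Early fallers of at least 1 at 60 min were only 3 genes and held 0 that fell, and those called at 120 min held 1 that rose. The causes of these differences were not tested.

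With 1 array left out in turn, called genes ranged from 58 to 324, higher from 50 to 169 and lower from 5 to 155. Early risers that rose ranged from 46 to 82 and that fell from 0 to 2, and early fallers that fell from 2 to 17. Bracketed genes ranged from 79 to 221 higher and 126 to 598 lower, the difference of readouts from 35 to 82 and 72 to 134, and unequal segments from 113 to 226. Deviations from the group mean of same-lettered arrays at 20 and 40 min correlated at 0.026, -0.393 and 0.126. Those of differently lettered arrays correlated at -0.456 to 0.464. Deviations from a mean of 3 arrays are tied to one another, so these values cannot decide whether the letters pair the samples. A replicate block gave 85 called genes, 73 higher and 12 lower, kept 108 of the 119 calls, and gave 130 and 286 bracketed genes, 73 and 126 for the difference, and 197 with unequal segments.

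The 3 arrays a time limit which changes can pass, and dim genes lie near the background, where the pseudocount understates a change. Unnamed probesets were placed by ID number alone, and whether they lie in introns was not tested.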
